A study of Homo sapiens with 3 samples.

Results

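The transcripts described here are those of 10 human genes that restrain, relay or form mTORC1, the growth-promoting kinase complex. They were taken as the rows of the gene tables named DDIT4, SESN1, SESN2, SESN3, TSC1, TSC2, RHEB, RPTOR, DEPTOR and MTOR, which are 10 of 58243 genes. All 10 were found in each table. The cells are human and, by their label, LoVo, which is a line from a colorectal carcinoma. They carry a Tet-On construct in which doxycycline switches on a short hairpin RNA against HRD1, the ubiquitin ligase of endoplasmic reticulum (ER) quality control that SYVN1 encodes. The 3 groups were cells given doxycycline at 1 µg/ml for 0, 3 or 5 days, so the day 0 cells carried the same hairpin construct without the inducer. There was 1 library per group, and neither the number of clones nor a doxycycline control without the hairpin is given in the labels.

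mTORC1 is a kinase complex built from MTOR and the scaffold RPTOR that drives protein synthesis and cell growth when amino acids and growth factors are plentiful. On the lysosome it is switched on by the GTPase RHEB, which the TSC1 and TSC2 complex holds inactive, while the Rag GTPases bring the complex to the lysosome when amino acids are present. Stressed cells put brakes on this route: DDIT4 (also called REDD1) acts through the TSC complex, and the sestrins act on the amino acid branch through GATOR2. Under ER stress, DDIT4 and SESN2 are known targets of ATF4, the transcription factor translated when the kinase PERK is active, whereas SESN3 is best known as a FOXO target.

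Since each time has 1 library, no p-value was computed and no difference could be set against replicates. A ratio therefore compares a pair of libraries, not the conditions. The values in square brackets are exact 95% intervals for counting error alone. The libraries held 21308785, 22068686 and 25754188 reads assigned to genes at day 0, day 3 and day 5. SYVN1, the targeted gene, had 1212, 650 and 709 reads, with log2 ratios of -0.88 at day 3 and -1.05 at day 5 over day 0. The labelled cell type was little borne out by its markers. Of 8 colorectal epithelial genes, only KRT8 and KRT18 were abundant. EPCAM, CDH1, KRT20, VIL1 and LGALS4 stayed below 1 TPM in all 3 libraries, and CDX2 had 0 reads in each. Of 6 mesenchymal genes, VIM was the most abundant at day 0, at 4016 TPM. The others lay far lower in that library, from 0 TPM (COL1A2) to 294 TPM (THBS1). Of 7 liver genes, SERPINA1 was abundant throughout (799, 664 and 693 TPM). The other 6 were at 0 reads at day 0, and those of 5 blood genes summed to 5, while these genes were more frequent at day 5, of which ALB, with 0, 0 and 114 reads in the libraries of day 0, day 3 and day 5, is an example. Their part in the day 5 ratios below was not tested.

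The windows around the starts of DDIT4 and SESN2 are shown because these are the members whose transcripts stood highest above day 0. Also shown is 1 of the 2 TSC2 windows, which alone among the members’ searched windows holds TGATGNAA, the ATF4 and CEBP composite letters. Each window runs from 250 bases before to 50 bases after the RefSeq start on GRCh38.p14, is written 5′ to 3′ on the gene's own strand, and has the letters of the searched motifs in capitals.
DDIT4, plus strand, chr10:72273674-72273973: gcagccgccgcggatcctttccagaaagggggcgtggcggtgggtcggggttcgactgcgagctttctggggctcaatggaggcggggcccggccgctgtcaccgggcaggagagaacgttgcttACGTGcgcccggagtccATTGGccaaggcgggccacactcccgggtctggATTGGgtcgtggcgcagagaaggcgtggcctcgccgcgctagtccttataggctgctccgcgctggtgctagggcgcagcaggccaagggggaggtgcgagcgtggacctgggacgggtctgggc
SESN2, plus strand, chr1:28259268-28259567: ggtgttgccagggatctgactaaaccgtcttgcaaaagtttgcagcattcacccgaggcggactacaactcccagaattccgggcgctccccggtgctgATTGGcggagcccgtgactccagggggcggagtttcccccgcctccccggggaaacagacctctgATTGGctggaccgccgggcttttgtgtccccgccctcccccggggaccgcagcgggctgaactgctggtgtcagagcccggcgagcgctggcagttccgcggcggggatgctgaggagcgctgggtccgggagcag
TSC2, plus strand, chr16:2047735-2048034: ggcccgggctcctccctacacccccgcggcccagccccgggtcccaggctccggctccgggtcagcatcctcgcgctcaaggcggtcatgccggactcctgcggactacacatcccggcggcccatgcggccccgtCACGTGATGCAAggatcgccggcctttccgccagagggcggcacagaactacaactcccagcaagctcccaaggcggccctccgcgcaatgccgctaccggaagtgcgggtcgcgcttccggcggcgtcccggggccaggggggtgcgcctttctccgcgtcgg
The motifs, searched on both strands, were TGATGNAA, the cyclic AMP response element TGACGTCA, the E-box CACGTG, the hypoxia core ACGTG (which lies inside every E-box), CCAAT and the FOXO letters GTAAACA. Both CCAAT matches of DDIT4 and both of SESN2 read as ATTGG, that is, on the other strand. They began at positions -108 and -75 from the start of DDIT4 and at -151 and -86 from that of SESN2. The letters ACGTG of DDIT4 began at -125. In TSC2 the run CACGTGATGCAA is an E-box overlapping TGATGCAA. Of 35116 promoter windows, 34.6% held CCAAT, 21.4% ACGTG, 7.26% CACGTG and 3.62% TGATGNAA. Windows of 9 of the 10 genes were searched, with several starts for SESN1 and TSC2. No window of DEPTOR was searched. A match is a description of letters in these windows and no match says nothing of sites outside them.

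Levels were compared between genes on the authors' TPM scale, which takes account of transcript length. RHEB was the most abundant, with 219, 225 and 251 TPM at day 0, day 3 and day 5. DDIT4 came next in each library, with 98.1, 186 and 144 TPM, so that RHEB stood 2.23-fold above DDIT4 at day 0 but 1.21-fold above it at day 3. The order below was RPTOR (62.7, 54.4 and 55.1 TPM), TSC2 (53.5, 46.3 and 48.1 TPM) and MTOR (43.2, 34.9 and 36.6 TPM). It did not differ between libraries.

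TSC1 stood well below its partner, at 16.7, 15.2 and 18.0 TPM at day 0, day 3 and day 5, with TSC2 over TSC1 ratios of 3.19, 3.05 and 2.67. SESN2 had 13.1, 21.5 and 19.8 TPM, below TSC1 at day 0 and above it at day 3. At day 5 the counting interval of their ratio held 1 [0.978 to 1.23], the only neighbouring pair in any library for which it did. SESN1 (6.92, 7.66 and 8.51 TPM), SESN3 (4.44, 3.82 and 4.45 TPM) and DEPTOR (2.63, 1.92 and 2.96 TPM) closed the order in each library. SESN2 made up 53.6%, 65.2% and 60.4% of the summed TPM of the 3 sestrins, which was 24.5, 33.0 and 32.8 TPM. Only 26.2% of SESN3 reads were uniquely placed, so these shares rest in part on reads with several placements. Its place above DEPTOR depends on such reads. The uniquely placed reads of SESN3 numbered 68, 48 and 80 over 10573 exon bases. Those of DEPTOR numbered 34, 27 and 51 over 2622 exon bases. Per exon base, uniquely placed reads alone put SESN3 below DEPTOR in each library.

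**Figure D1:**
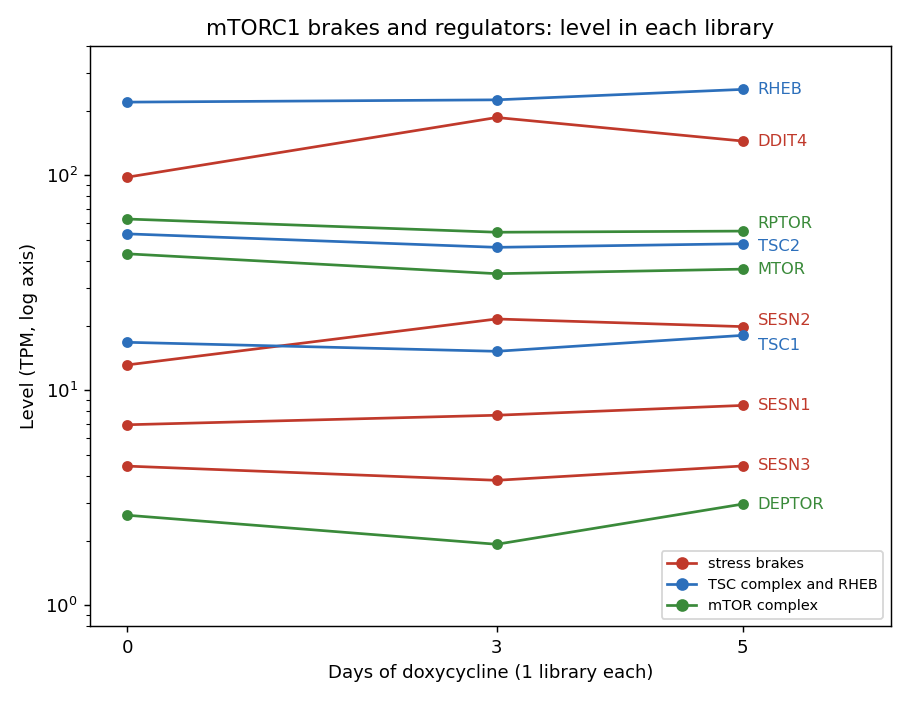
Level of each of the 10 genes (TPM, log axis) in the single library of day 0, day 3 and day 5, coloured by role. DDIT4 and SESN2 are higher at day 3 and day 5 than at day 0, RHEB lies on top at 219, 225 and 251 TPM, and DEPTOR lies lowest.

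For day 3 over day 0, the stress brakes DDIT4 and SESN2 stood out among the members, while TSC1, TSC2, RHEB, MTOR and RPTOR had ratios within 1.2-fold. With the authors' TPM, however, MTOR was at -0.30 (log2), which is past 1.2-fold. Genes averaging 50 or more reads over the 3 libraries are called measured below. They number 12593 and include 9 of the 10 members. Of these 9, 2 members were at least 1.5-fold higher with an interval excluding 1 and 0 were lower. The same rule took 1.29% of all measured genes as higher, 2.53% as lower and 3.82% in either direction. At 1.2-fold the member counts were again 2 and 0, against 9.98%, 10.7% and 20.7% of all measured genes. In a bulk sample, more RNA per cell and more cells that hold the transcript cannot be told apart.

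DDIT4 (ENSG00000168209, GRCh38 chromosome 10, positions 72273920 to 72276036, plus strand), the TSC-dependent mTORC1 inhibitor, had 1001 reads at day 0, 2053 at day 3 and 1807 at day 5. Scaled to library size (CPM), its levels were 46.3, 96.1 and 68.8. The day 3 library was highest and the day 0 library lowest. At day 3 over day 0 DDIT4 was 2.07-fold higher [1.92 to 2.24], which ranked it 23 of 12593 genes.

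Of the DDIT4 reads, 60.3% were uniquely placed, so its reads were also followed by kind. Its uniquely placed reads numbered 628, 1239 and 1065, and its exon-exon reads, all of them uniquely placed, numbered 379, 716 and 629. The exon-exon reads gave log2 ratios of 0.93 [0.75 to 1.12] for day 3 over day 0 and 0.45 [0.26 to 0.64] for day 5 over day 0. The antisense gene DDIT4-AS1, which overlaps DDIT4 over 1066 bases, had 0, 4 and 0 reads. Nothing in the sources used here says that the counting used strand, so reads of the pair cannot be told apart.

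SESN2 (ENSG00000130766, GRCh38 chromosome 1, positions 28259527 to 28282491, plus strand), the sestrin induced by amino acid and ER stress, had 243 reads at day 0, 410 at day 3 and 440 at day 5. After normalisation these were 11.2, 19.2 and 16.8 CPM, again highest at day 3 and lowest at day 0. Every one of its reads was uniquely placed. At day 3 over day 0 SESN2 was 1.71-fold higher [1.45 to 2.01], which ranked it 65 of 12593 genes and 25 of the 9100 with at least 90% uniquely placed reads. Its exon-exon reads, 109, 173 and 174, gave log2 ratios of 0.68 [0.33 to 1.04] at day 3 and 0.39 [0.04 to 0.75] at day 5 over day 0.

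The other sestrins differed less. SESN1 (minus strand of GRCh38 chromosome 6, 108986437 to 109094819) had 192, 225 and 282 reads, or 8.89, 10.5 and 10.7 CPM, at day 0, day 3 and day 5. Its log2 ratio was 0.25 [-0.04 to 0.53] for day 3 over day 0, which was not detectable at this depth, and 0.27 [0.004 to 0.55] for day 5 over day 0. SESN3 (minus strand of GRCh38 chromosome 11, 95165513 to 95232541) had 232, 221 and 294 reads, or 10.7, 10.3 and 11.2 CPM, and its log2 ratios of -0.05 [-0.33 to 0.22] and 0.06 [-0.19 to 0.32] at day 3 and day 5 were not detectable either. Only 26.2% of SESN3 reads were uniquely placed. These numbered 68, 48 and 80, and with them the day 3 ratio was -0.48 rather than -0.05. The whole of SESN3 lies inside AP000787.1, a gene on the other strand with 15, 5 and 9 reads.

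The same brakes were higher by smaller ratios for day 5 over day 0. DDIT4 was 1.49-fold higher [1.38 to 1.61] and SESN2 1.49-fold higher [1.27 to 1.75], both just short of the 1.5-fold rule, so 0 members met it in either direction. The rule took 1.75% of measured genes as higher, 1.28% as lower and 3.03% in either direction. At 1.2-fold 3 members were higher, namely DDIT4, SESN2 and SESN1, and 0 were lower, against 9.4% and 7.82% of measured genes, or 17.2% in either direction. SESN1, at 1.21-fold with an interval reaching 1.00, is the weakest of these. SESN1 was not called with DESeq2 size factors (0.26), a prior count of 5 (0.26), trends removed (0.15) or unique reads, each of which left 2 members. After removal of the gene-wide trends described below, DDIT4 (0.65) and SESN2 (0.66) passed 1.5-fold at day 5. With uniquely placed reads DDIT4 had 0.50 and SESN2 0.59, so that SESN2 alone passed it.

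Between day 5 and day 3, DDIT4 was the only member called at 1.2-fold. Its day 5 level was 71.6% of that at day 3 (log2 -0.48 [-0.57 to -0.39]). Of measured genes, 2.08% had a lower ratio. SESN2 had -0.20 [-0.39 to 0.002]. At 1.5-fold 0 members were called, against 2.28% of measured genes higher, 0.969% lower and 3.25% in either direction. At 1.2-fold 1 member was lower and 0 higher, against 10.9% and 12.4% of measured genes, or 23.3% in either direction. However, DDIT4 has a GC content of 63.0% in its transcripts, and with the trends removed its ratio was -0.26 which is short of 1.2-fold.

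**Figure D2:**
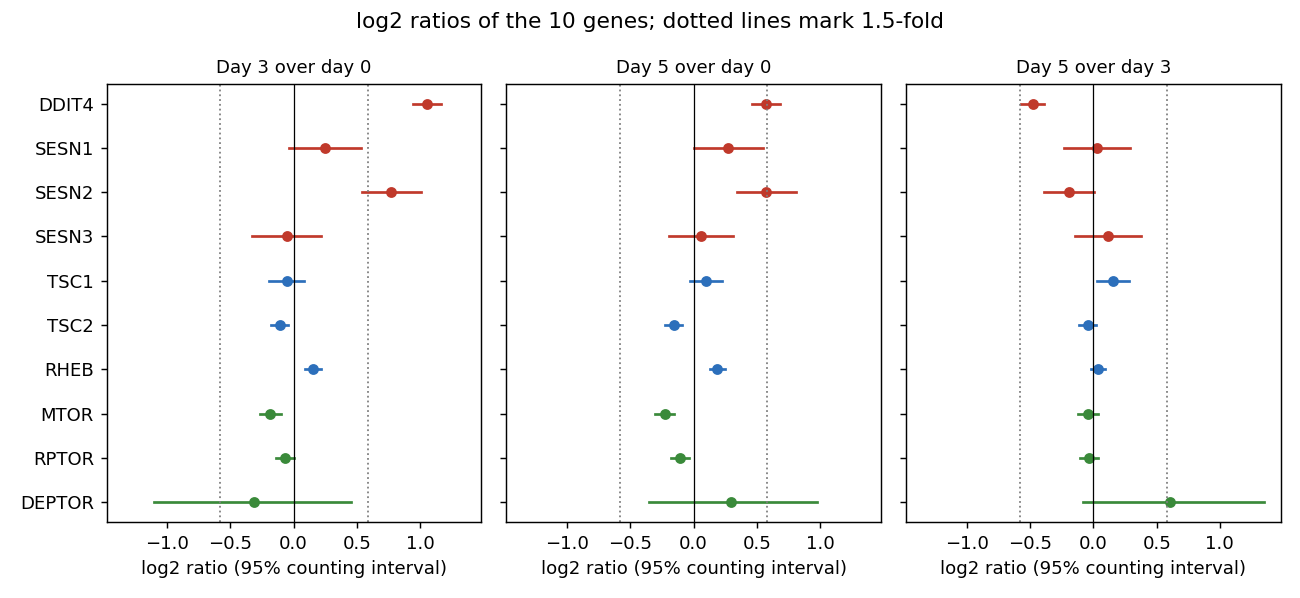
log2 ratio of each of the 10 genes (horizontal axis) for day 3 over day 0, day 5 over day 0 and day 5 over day 3, with 95% intervals for counting error only and dotted lines at 1.5-fold. DDIT4 (1.05) and SESN2 (0.77) lie past the line at day 3, both lie at 0.57 at day 5, and the wide intervals of DEPTOR reflect its 34, 27 and 51 reads.

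The TSC complex and RHEB, which pass growth factor signals to mTORC1, differed little. TSC1 (GRCh38 chromosome 9, positions 132891348 to 132944633, minus strand), the stabilising subunit, had 888 reads at day 0, 845 at day 3 and 1156 at day 5. Its levels of 41.1, 39.6 and 44.0 CPM were lowest at day 3. Its log2 ratio was -0.05 [-0.19 to 0.08] for day 3 over day 0, 0.10 [-0.03 to 0.23] for day 5 over day 0 and 0.15 [0.03 to 0.28] for day 5 over day 3.

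TSC2 (GRCh38 chromosome 16, positions 2047465 to 2088720, plus strand), the subunit that switches RHEB off, had 3360, 3074 and 3660 reads. Its levels of 156, 144 and 139 CPM gave log2 ratios of -0.11 [-0.18 to -0.04] at day 3 and -0.16 [-0.23 to -0.09] at day 5 over day 0. TSC2 overlaps NTHL1 by 402 bases and PKD1 by 11 bases, both on the other strand. RHEB (GRCh38 chromosome 7, positions 151466012 to 151520120, minus strand), the GTPase that activates mTORC1, had 3947, 4336 and 5460 reads. Its levels of 183, 203 and 208 CPM gave 0.15 [0.09 to 0.22] at day 3 and 0.19 [0.13 to 0.25] at day 5 over day 0, so both later libraries lay above day 0, by 1.11-fold and 1.14-fold. With the authors' TPM the RHEB ratio at day 3 was 0.04, and with the trends removed that at day 5 was 0.07.

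Of the mTOR complex, 2 of 3 members were measured, and with the scaled counts 0 were called at 1.2-fold in any of the 3 comparisons. The rule took 20.7%, 17.2% and 23.3% of all measured genes in either direction at day 3 over day 0, day 5 over day 0 and day 5 over day 3. With 2 genes, a count of 0 is not set apart from these shares. MTOR (GRCh38 chromosome 1, positions 11106535 to 11262507, minus strand), the kinase itself, had 2634 reads at day 0, 2292 at day 3 and 2731 at day 5. Its levels were 122, 107 and 104 CPM, with both later libraries below day 0. Its log2 ratio was -0.18 [-0.27 to -0.10] at day 3 and -0.23 [-0.31 to -0.15] at day 5 over day 0, and 20.3% and 12.3% of measured genes had lower ratios.

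RPTOR (GRCh38 chromosome 17, positions 80544819 to 80966371, plus strand), which presents substrates to the kinase, had 3237, 3047 and 3650 reads, or 150, 143 and 139 CPM. Its log2 ratios were -0.07 [-0.14 to 0.001] at day 3 and -0.11 [-0.18 to -0.04] at day 5 over day 0. DEPTOR, an inhibitory subunit that binds MTOR, had 34, 27 and 51 reads, a mean of 37.3, and was the member under the minimum of 50. Its log2 ratios of -0.31 [-1.10 to 0.46] at day 3 and 0.30 [-0.35 to 0.98] at day 5 over day 0, and 0.61 [-0.08 to 1.35] for day 5 over day 3, have intervals that hold 0, so no difference was detectable at this depth.

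The small ratios of the long members stand beside a trend over all genes. Over 12487 genes, which do not count as replicates, exon length and the day 3 over day 0 log2 ratio were correlated with a Spearman rho of -0.38. The shortest eighth of genes had a median ratio of 0.16. The longest eighth had -0.15, and it starts at 9671 bases and holds SESN3, TSC1, TSC2 and MTOR. The day 5 over day 0 correlation was -0.10 with exon length and -0.41 with the GC content of the transcripts. After smooth trends on both were removed, the day 3 ratio was -0.01 for MTOR, 0.01 for TSC2 and 0.02 for RPTOR, and the day 5 ratio was 0.01 for TSC2 and 0.02 for RPTOR. Over 8 alternatives the MTOR ratio at day 3 ranged from -0.30 with the authors' TPM to -0.01 with the trends removed. The MTOR ratio at day 5 was -0.20 with the trends removed and ranged from -0.24 to -0.20 over the same alternatives. DDIT4 and SESN2 kept day 3 ratios of 0.91 and 0.68 with the trends removed.

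**Figure D3:**
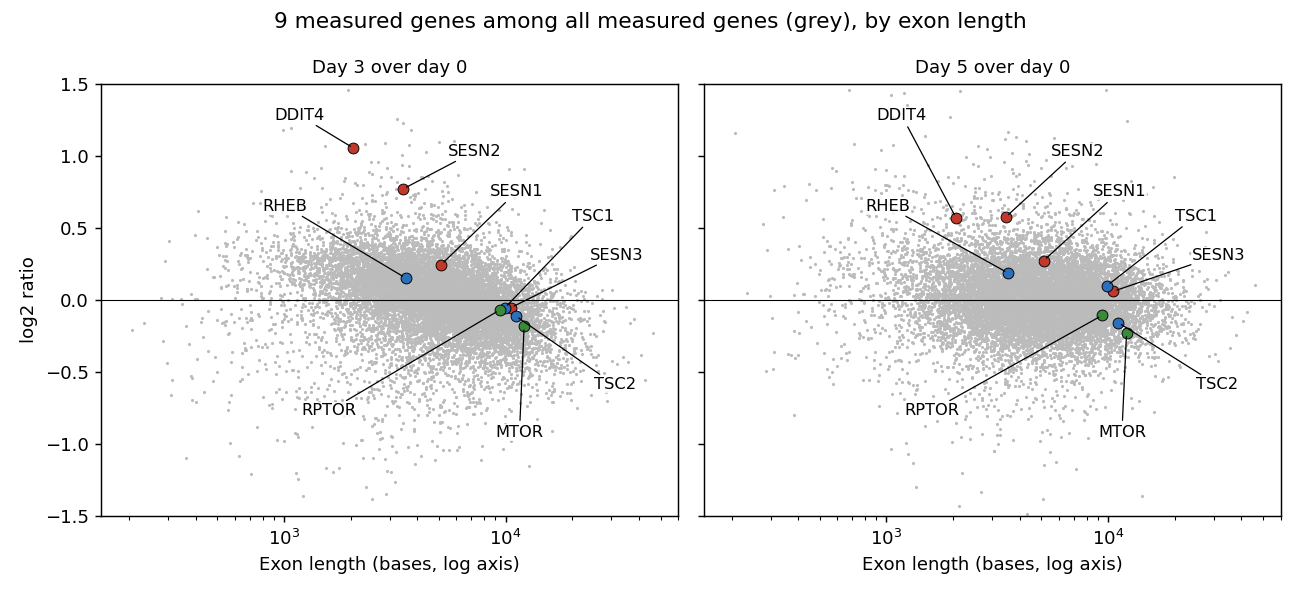
log2 ratio (vertical axis) against exon length (bases, log axis) of all measured genes (grey) and the 9 measured members, coloured as in the plot of levels, for day 3 over day 0 and day 5 over day 0. Genes outside the axes are not drawn. At day 3 the long genes SESN3, TSC1, RPTOR, TSC2 and MTOR lie near 0, while DDIT4 and SESN2 lie at the upper edge of the cloud of genes, with ranks of 23 and 65 of 12593.

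**Figure D4:**
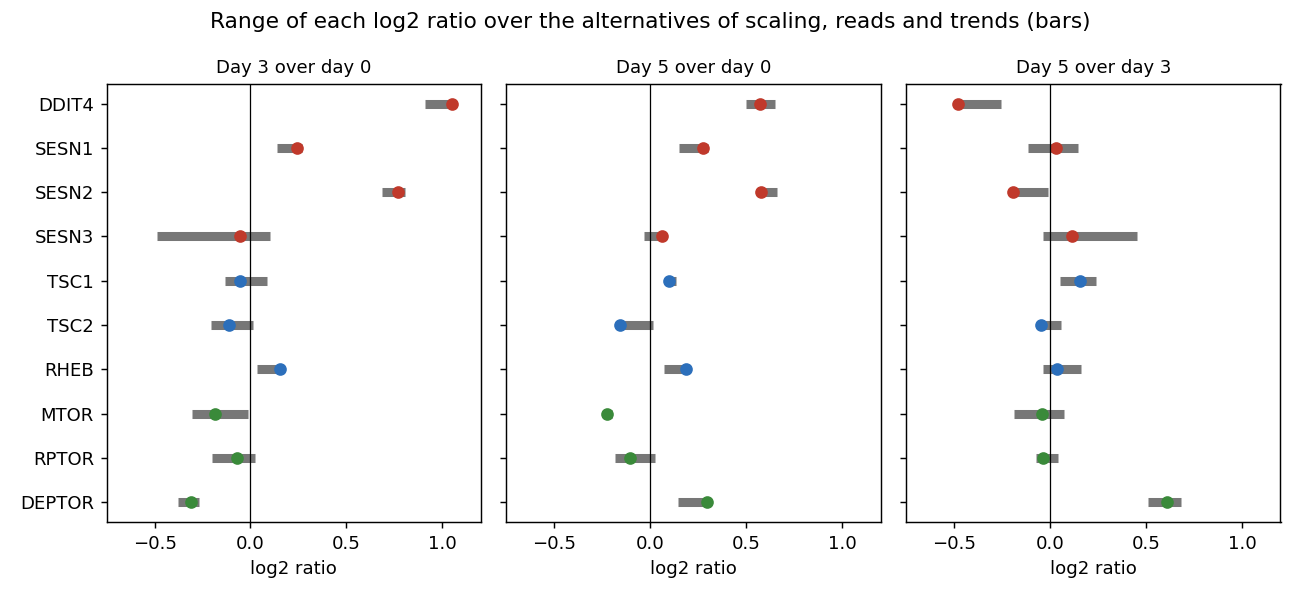
Range of the log2 ratio of each gene (grey bars) over 8 alternatives of scaling, reads and trends (7 for DEPTOR), with the reported value as a point, for the 3 comparisons. DDIT4 ranges from 0.91 to 1.06 and SESN2 from 0.68 to 0.80 at day 3, while the bars of SESN3, TSC1, TSC2 and RPTOR cross 0 there.

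The tables also count reads in introns, which come largely from unspliced RNA. Of the members, TSC1, TSC2, RHEB and RPTOR had a mean of at least 50 intron reads, whereas DDIT4 had 4, 6 and 7 at day 0, day 3 and day 5 and SESN2 had 19, 13 and 26, too few for a ratio to be read. Over the 5666 genes with that many intron reads, the median log2 ratio of intron reads was -0.29 for day 3 over day 0 and -0.04 for day 5 over day 0.

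RPTOR had 332, 314 and 519 intron reads, and those of day 5 were 1.29-fold higher than at day 0 [log2 0.16 to 0.57], while its exon-exon reads had a log2 ratio of -0.25 [-0.34 to -0.15]. Of genes with enough intron reads, 89.7% had a lower intron ratio. RHEB had 122, 88 and 83 intron reads, with a log2 ratio of -0.83 [-1.26 to -0.42] for day 5 over day 0, and 0.918% of genes lay lower, while its exon-exon reads were higher, at 0.15 [0.08 to 0.22]. The intron reads of TSC2 (425, 320 and 421) and TSC1 (69, 39 and 74) had log2 ratios of -0.39 and -0.80 at day 3 over day 0, nearer the median over genes for TSC2. By the 1.2-fold rule, at day 3 over day 0 the intron reads of 0 of these 4 genes were higher and of 3 lower (TSC1, TSC2 and RHEB), against 2.19% and 35.4% of the 5666 genes. At day 5 over day 0 those of RPTOR were higher and those of TSC2 and RHEB lower, against 7.89% and 12.2%. For day 5 over day 3 those of TSC1 and RPTOR were higher and 0 lower, against 33.1% and 2.88%.

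The remaining genes of the route were described by 5 lists, which together hold 75 genes, 71 of them measured. At day 3 over day 0, 11 were at least 1.2-fold higher and 6 lower, beside 9.98% and 10.7% of all measured genes, and 1 was 1.5-fold higher, beside 1.29%. The median log2 ratio was 0.05 against 0.01 over all measured genes. At day 5 over day 0, 7 were higher and 2 lower at 1.2-fold, beside 9.4% and 7.82% of all measured genes, and 0 were called at 1.5-fold, with a median of 0.04 against 0.01. For day 5 over day 3, 9 were higher and 12 lower at 1.2-fold, beside 12.4% and 10.9%, with medians of -0.01 for the lists and 0.00 for all measured genes. With the authors' TPM the day 3 median over the 5 lists was -0.06, while that of all measured genes was -0.08.

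Among other subunits and assembly factors of the mTOR complexes, 9 of 10 were measured, with medians of 0.05 at day 3 and -0.06 at day 5 over day 0. RICTOR, the defining subunit of mTORC2, had 1721 reads at day 0, 1219 at day 3 and 2118 at day 5, of which 66.4% were uniquely placed. Its log2 ratio was -0.48 [-0.59 to -0.37] at day 3 and 0.02 [-0.07 to 0.11] at day 5 over day 0, so the day 3 library stood apart from the others. RICTOR has 13550 exon bases, and the longest eighth of genes had a median of -0.15 at day 3. MLST8, shared by both mTOR complexes, had 0.28 at day 3, PRR5L, an mTORC2 partner, had -0.34 at day 3, and TBC1D7, the third subunit of the TSC complex, had 0.37 [0.15 to 0.60] at day 5. TELO2, which helps assemble mTOR, had -0.32 [-0.41 to -0.22] at day 5.

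The Rag GTPases, the Ragulator that anchors them and their lysosomal partners had 11 of 13 members above day 0 at each time. Of the 12593 measured genes, 6547 at day 3 and 6435 at day 5 lay above day 0. The medians of the list were 0.13 and 0.19 against 0.01 over all measured genes at both times. With the trends removed the medians were 0.14 and 0.11. At 1.2-fold 3 were higher at day 3 and 4 at day 5, beside 9.98% and 9.4% of all measured genes, and 0 were lower, beside 10.7% and 7.82%. The Ragulator subunits LAMTOR4 (0.46 [0.34 to 0.58]) and LAMTOR5 (0.37 [0.29 to 0.45]) led at day 3. RRAGB (0.54 [0.12 to 0.98]) and LAMTOR3 (0.37 [0.17 to 0.57]) led at day 5.

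Of the GATOR, KICSTOR and amino acid sensor genes, which include those of GATOR2, through which sestrins act, 15 of 16 were measured. Their medians were 0.07 at day 3 and -0.03 at day 5. CASTOR1, an arginine sensor, had 34, 61 and 61 reads and 0.85 [0.23 to 1.51] at day 3, with 35.9% uniquely placed reads. NPRL2, a GATOR1 subunit, had 0.43 [0.27 to 0.60], and KPTN of KICSTOR had 0.37 [0.07 to 0.66] at day 3, while the methyltransferase gene BMT2 (SAMTOR) had 0.43 [0.04 to 0.84] at day 5. Among upstream kinases and phosphatases, 18 of 19 were measured, with medians of -0.06 at day 3 and 0.02 at day 5, which turned to 0.10 and -0.01 with the length and GC trends removed. TRIB3, an ATF4 target reported to bind AKT, had 1292, 1832 and 1796 reads and 0.52 [0.42 to 0.62] at day 3. PRKAA2, a catalytic subunit of AMPK, had -0.38, INPP4B, a lipid phosphatase, -0.30, and PIK3CA, the PI3-kinase catalytic subunit, -0.29 at day 3. These 3 genes have long transcripts, with exon lengths of 9354, 14153 and 9411 bases.

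Of the substrates and readout genes of mTORC1, 16 of 17 were measured, with medians of 0.03 at day 3 and -0.00 at day 5. EIF4EBP1, the translation repressor that mTORC1 phosphorylates and a known ATF4 target, had 1822, 2412 and 2443 reads and 0.42 [0.33 to 0.51] at day 3. RPS6, the ribosomal protein read as a marker of S6 kinase, had 0.30, LPIN1, a lipid enzyme, had 0.35 [0.28 to 0.42] at day 5, and TFEB, the lysosomal transcription factor, had -0.51 [-0.97 to -0.07] at day 5 from 93, 80 and 79 reads. RNA levels do not show phosphorylation, so the activity of mTORC1 was not measured.

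The known regulators of the brakes were set beside them. Of 11 measured among 12, 3 were at least 1.2-fold higher and 1 lower at day 3, against 9.98% and 10.7% of all measured genes. At day 5, 2 were higher and 1 lower, against 9.4% and 7.82%. Their medians were -0.02 at day 3 and 0.04 at day 5. ATF4 had 0.38 [0.33 to 0.43] and CEBPB, a partner factor, 0.40 [0.30 to 0.50] at day 3. DDIT3, which encodes CHOP, had 0.68 [0.50 to 0.86], or 0.44 with uniquely placed reads, and FOXO1 had -0.33 [-0.66 to -0.01]. HIF1A and FOXO3 had -0.21 and -0.02 at day 3 and -0.02 and 0.26 at day 5.

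Genes known to answer to these regulators were counted in 3 lists, which are ATF4, hypoxia, and FOXO or glucocorticoid targets. Of 15 measured ATF4 targets, 12 were 1.2-fold higher and 1 lower at day 3, and 5 and 0 at day 5, with medians of 0.41 and 0.23. All measured genes had 9.98% higher and 10.7% lower at day 3 and 9.4% and 7.82% at day 5, the background also of the lists that follow. CTH (0.89) of cysteine synthesis, ASNS (0.86, or 0.48 with uniquely placed reads) of asparagine synthesis, the glutathione-degrading CHAC1 (0.67) and the lipoprotein receptor VLDLR (0.63) led the measured genes at day 3. Of 12 measured hypoxia targets 7 were 1.2-fold higher at each time and 1 and 0 lower, with medians of 0.32 and 0.33. By the larger ratio of the 2 times, PDK1, BNIP3, VEGFA and ANKRD37 led the measured genes (0.62, 0.62, 0.53 and 0.38 at day 3 and 0.73, 0.65, 0.37 and 0.50 at day 5).

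Of 8 measured FOXO and glucocorticoid targets, 3 were 1.2-fold higher at each time and 1 and 0 lower, with medians of 0.09 and 0.14. TXNIP, KLF9, TSC22D3 and BCL6 had 0.84, 0.75, 0.45 and -0.32 at day 3 and 0.23, 0.37, 0.52 and -0.18 at day 5. The medians of all measured genes were 0.01 at both times.

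**Figure D5:**
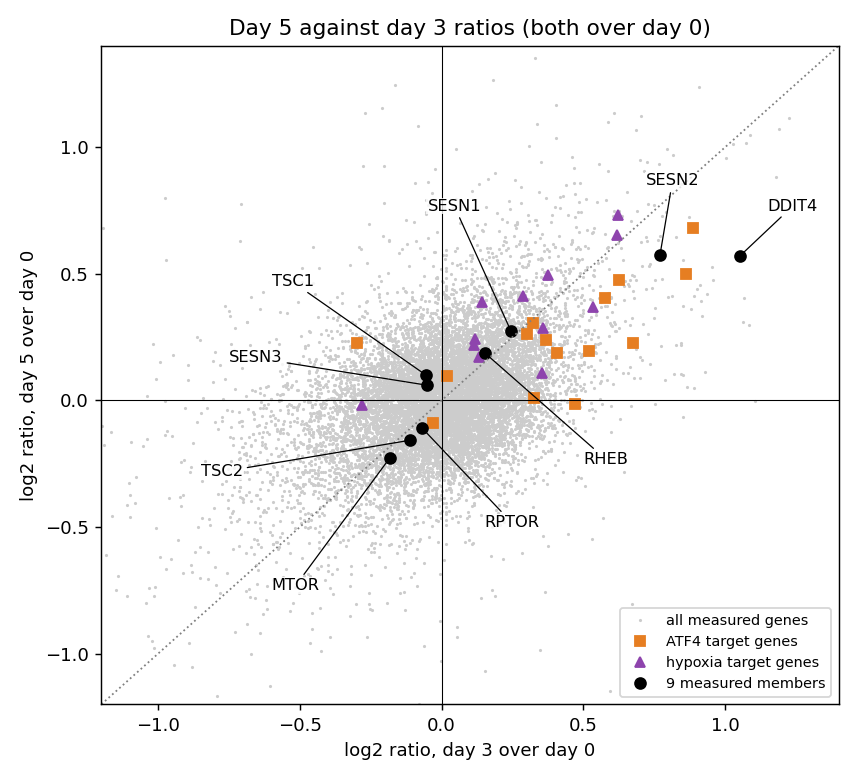
log2 ratio for day 5 over day 0 (vertical axis) against that for day 3 over day 0 (horizontal axis) of all measured genes (grey), ATF4 targets (squares), hypoxia targets (triangles) and the 9 measured members (black). Both ratios share the day 0 library, so the spread along the dotted line of equal ratios is in part built in. DDIT4 at 1.05 and 0.57 lies below the line, beside ATF4 targets such as CTH and ASNS. Only 4.1% of the ASNS reads were uniquely placed. Genes outside the axes are not drawn.

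The genes whose ratios were most like those of DDIT4 and SESN2 were found by distance in the pair of log2 ratios at day 3 and day 5 over day 0. Compared were 7580 genes averaging 200 or more reads, 90% or more of them uniquely placed. Nearest to DDIT4 were CTH, SESN2 itself, HSPA5, the ER chaperone BiP, SPATA2L and the metallothionein MT1E, at distances of 0.20 to 0.38. Nearest to SESN2 were MT1E, SPATA2L, HSPA5, CTH and the hypoxia gene BNIP3, at 0.12 to 0.17. CTH had 140 reads at day 0, 256 at day 3 and 273 at day 5, and HSPA5 had 23137, 37668 and 38151. Likeness over 3 libraries describes these libraries only.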

How the data were processed

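RNA-seq was done on 1 library from each of 3 groups (0, 3 and 5 days of doxycycline). The extraction used RNAiso Plus and the library kit was SMARTer mRNA-seq, per the labels' protocols. Per the file headers, the deposited tables give read counts per gene (unique and total gene, exon, exon-exon and intron reads) and a TPM value made by the authors. An aligner is not given in the sources used here. A mouse build, mm10, is named in the submitters' processing notes, but the identifiers are human: of 58243 genes, GENCODE 29 lists 57980, and start and end are identical for 97.6% of these, so the tables' coordinates are given as GRCh38. A table of the whole series, with 3 sample columns, was not used.

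The deposited counts of total gene reads were scaled with TMM factors (1.01, 0.968 and 1.02; edgeR 4.0.16, R 4.3.3), and log2 ratios took a prior count of 0.5. Intervals are exact conditional (Clopper-Pearson) 95% intervals, and a count of 3 reads is 0.139, 0.140 and 0.114 CPM. No test was possible with 1 library per group. A gene is called at 1.5-fold or 1.2-fold when it reaches that fold and its interval excludes 1. With the authors' TPM, which have no interval, the fold alone was used. Only genes averaging 50 or more reads are counted. Counts of 1.2-fold are a second size rule. Trends were removed with lowess (span 0.3, 3 rounds, statsmodels 0.14.6) on exon length and on GC content from GENCODE 29 transcripts. A GC content was found for all 10 members and 99.9% of measured genes. Also used were scipy 1.17.1, pandas 2.3.3, numpy 2.4.6, matplotlib 3.10.9 and Python 3.11.15, and the steps were tested on simulated data. Promoter windows are from RefSeq.

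The 10 members and the 10 other lists were chosen with earlier results of these data known, and 1 of these lists is not reported here. Named from each list were up to 4 measured genes with the largest absolute log2 ratio at day 3 or day 5 over day 0. MLST8, HIF1A and FOXO3 were named after their values were seen. The alternatives were DESeq2 1.42.0 size factors, no TMM, a prior count of 5, exon reads, unique reads, the authors' TPM (0.5 added), scaling without mitochondrial and the 20 most abundant genes, removal of trends, an interval excluding the fold itself, and minimum means of 10, 200 or no reads or at least 90% uniquely placed reads.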

Additional observations from a re-analysis of the deposited data

How the results depend on the processing

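No paired analysis was possible because each group has 1 library. Of 237 recomputed ratios of the 10 genes, 209 stayed inside their counting interval, 28 moved outside it and 0 of those called at 1.2-fold changed sign. Some smaller ratios did change sign. With trends removed, the day 5 over day 0 ratio went from -0.16 to 0.01 for TSC2 and from -0.11 to 0.02 for RPTOR. The count of members called at 1.5-fold for day 3 over day 0 was 2, and it was 1 with an interval excluding 1.5 (DDIT4) and 1 among genes with at least 90% uniquely placed reads (SESN2). For day 5 over day 0 it was 0, but 1 with unique reads and 1 with exon reads (SESN2 in both) and 2 with trends removed. At 1.2-fold it was 2 at day 3 and 1 among genes with uniquely placed reads. With the authors' TPM, by the fold alone, MTOR was also called at day 3, as lower (-0.30). For day 5 over day 3 the count was 1, against 0 with trends removed and 0 among genes with uniquely placed reads. Day 5 over day 0 gave 3, and 2 with DESeq2 size factors, unique reads, a prior count of 5, trends removed, an interval excluding 1.2 or uniquely placed genes. The day 5 over day 0 ratios of DDIT4 and SESN2 lie close to the limit. The smaller counts among genes with uniquely placed reads come from leaving out DDIT4.

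The split of all measured genes depended on scaling. The authors' TPM have no counting interval, so their counts below rest on the fold alone, a looser rule than that of the other counts. At 1.5-fold, 163 were higher and 318 lower at day 3 over day 0, against 115 and 427 with library totals. For day 5 over day 3 it was 287 and 122, against 426 and 75 with library totals, 397 and 89 with the authors' TPM and 276 and 228 with unique reads. Day 5 over day 0 gave 221 and 161, against 186 and 202 with unique reads. At 1.2-fold, 1257 and 1344 at day 3 became 670 and 2045 with library totals and 638 and 2625 with the authors' TPM, and 1556 and 1376 for day 5 over day 3 became 2485 and 712, and 2911 and 713. The share called at 1.5-fold at day 3 over day 0 was 3.82%, and 6.43%, 1.23% and 2.33% with minimum means of 10, 200 and no reads. For day 5 over day 0 it was 3.03%, and 5.86% and 0.957% with minimum means of 10 and 200, and for day 5 over day 3 it was 3.25%, and 6.25% and 1.04%. With no minimum the share at 1.2-fold was 5.98%, 5.39% and 6.75% in the 3 comparisons, and with trends removed it was 13.4% for day 5 over day 3. Depth limits DEPTOR, SESN1, SESN3 and the intron reads of DDIT4 and SESN2.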
